A study of Rattus norvegicus with 10 samples.

Results

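The level of Csap1, Otos, Upk3a, Wfdc3, Agt, Grp and Pou3f3 differed widely between rat mammary tumours. They are 7 of the 13832 gene symbols on the array and 7 of the 16779 genes kept for testing, and each was measured by 1 kept probe. They were chosen from these same tumours as the most variable genes outside the casein family, so their spread between tumours, and the way that spread runs beside the milk proteins, are descriptions and carry no test. The maternal diet comparison played no part in the choice and was tested.

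The arrays measured tubular/papillary mammary tumours of female Sprague-Dawley rats at 110 days of age. In the WD group (5 tumours), the dams had eaten a Western-style diet, high in fat and low in fiber and oligoelements, on gestational days 12 to 20 and postnatal days 1 to 21. In the CD group (5 tumours), the dams had eaten the control diet over those days. Daughters of both groups ate the control diet after weaning, and all received 1 intraperitoneal injection of 50 mg/kg N-methyl-N-nitrosourea (MNU), a DNA-alkylating mammary carcinogen, at 3 weeks of age. No sample of normal mammary gland and no tumour without MNU is analysed here. Dam and litter are not labelled, so some tumours may share a litter, and p-values measure only the spread between these tumours.

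Mammary secretory cells make milk proteins (caseins, alpha-lactalbumin, whey acidic protein) under the control of prolactin, whose receptor activates the transcription factor STAT5 through the kinase JAK2. Such secretory cells can also release peptides and protease inhibitors best known from other glands. Of the genes described here, Csap1 encodes common salivary protein 1, a secreted protein of rat salivary gland. Otos encodes otospiralin, a small secreted protein known from the inner ear. Wfdc3 encodes a member of the whey acidic protein (WAP) four-disulfide core family, which includes secreted protease inhibitors. Agt encodes angiotensinogen, the precursor of the angiotensins, and Grp encodes gastrin-releasing peptide, a bombesin-like peptide hormone. The remaining pair are not secreted proteins: Upk3a encodes uroplakin 3A, a membrane protein of the urothelial surface, and Pou3f3 encodes a nuclear transcription factor of the POU family known from the developing brain and kidney.

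The kept probes are A_44_P126938 (Csap1), A_44_P203564 (Otos), A_43_P19944 (Upk3a), A_44_P1007870 (Wfdc3), A_43_P13272 (Agt), A_44_P202201 (Grp) and A_44_P311106 (Pou3f3). Levels are log2 spot intensities with the 75th percentile of the same array set to 0. Arrays differed in brightness, the 75th percentile being 72.8 to 170 intensity units in WD tumours and 85.0 to 226 in CD tumours, and 16685 to 21905 probes were well above background on an array. The lowest level well above background on an array, called its detection limit here, lay between -3.25 and -1.82. Values near or below that have no firm order. A spot above that level can still be not well above background, so a range taken with undetected tumours at that level is not a firm bound. Of 13 luminal epithelial markers on the array, 11 were kept, and Elf3 and Foxa1 were not. Among those kept, luminal keratin Krt18 was well above background in all 10 tumours, and the estrogen receptor Esr1 in 5 CD tumours and 0 WD tumours. Among all genes the median standard deviation over the 10 tumours was 0.37, and the median range was 1.15. The number of arrays limits the precision.

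Promoter sequence is given for the members that moved together and for a pair of casein genes, because milk protein promoters are the reference for prolactin-driven transcription. The windows run from 250 bases before to 50 bases after the annotated start, on the gene's own strand, and come from RefSeq on the GRCr8 assembly, which had such a window for 5 of the 7 genes (Agt and Pou3f3 had none). Capitals mark matches, on either strand, to any of 4 short motifs: TTCNNNGAA (the STAT5 element), AGGAAG (a core bound by ETS factors such as Elf5), TATAAA (the TATA box) and ATGCAAAT (the octamer bound by POU factors). The windows are Csap1 at chr10:13418692-13418991 (plus strand), Otos at chr9:100665849-100666148 (minus strand), Wfdc3 at chr3:173898245-173898544 (minus strand), Csn1s1 at chr14:20638800-20639099 (minus strand) and Csn2 at chr14:20601574-20601873 (plus strand).
Csap1: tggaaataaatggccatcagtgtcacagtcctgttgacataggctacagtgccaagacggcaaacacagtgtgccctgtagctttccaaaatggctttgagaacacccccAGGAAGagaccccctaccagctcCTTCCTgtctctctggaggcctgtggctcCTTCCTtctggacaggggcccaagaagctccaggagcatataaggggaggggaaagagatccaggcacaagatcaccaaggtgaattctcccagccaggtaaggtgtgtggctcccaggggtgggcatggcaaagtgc
Otos: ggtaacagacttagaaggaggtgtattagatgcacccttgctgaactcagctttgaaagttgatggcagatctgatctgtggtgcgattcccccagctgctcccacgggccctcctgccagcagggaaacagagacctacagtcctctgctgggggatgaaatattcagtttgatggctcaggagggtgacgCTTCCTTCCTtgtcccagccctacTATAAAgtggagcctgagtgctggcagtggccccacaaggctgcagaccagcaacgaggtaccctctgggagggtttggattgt
Wfdc3: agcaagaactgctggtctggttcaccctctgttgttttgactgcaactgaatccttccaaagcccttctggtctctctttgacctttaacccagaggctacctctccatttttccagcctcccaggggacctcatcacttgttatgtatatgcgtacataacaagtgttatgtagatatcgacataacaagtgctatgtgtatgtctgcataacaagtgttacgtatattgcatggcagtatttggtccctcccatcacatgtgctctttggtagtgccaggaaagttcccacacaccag
Csn1s1: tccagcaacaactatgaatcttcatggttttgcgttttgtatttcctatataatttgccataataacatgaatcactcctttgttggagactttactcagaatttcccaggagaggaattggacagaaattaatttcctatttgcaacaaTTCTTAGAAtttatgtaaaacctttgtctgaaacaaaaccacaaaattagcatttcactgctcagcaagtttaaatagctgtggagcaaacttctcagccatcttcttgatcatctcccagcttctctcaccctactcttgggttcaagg
Csn2: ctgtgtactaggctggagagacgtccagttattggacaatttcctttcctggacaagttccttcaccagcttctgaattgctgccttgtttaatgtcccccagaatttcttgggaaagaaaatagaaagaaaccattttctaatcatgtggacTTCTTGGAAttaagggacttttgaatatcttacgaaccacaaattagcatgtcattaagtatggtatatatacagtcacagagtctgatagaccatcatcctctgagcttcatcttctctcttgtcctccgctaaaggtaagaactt
The STAT5 element stood in the windows of Csn1s1 and Csn2, as TTCTTAGAA starting at position -100 of Csn1s1 and TTCTTGGAA starting at position -97 of Csn2, counted from the annotated start. The Csn3 window held no match to any of the 4 motifs. The STAT5 element was in 8.68% of 27457 rat promoter windows and in none of the 5 windows of the genes described here. Csap1 had 3 AGGAAG matches, and Otos had 2 that overlap each other on the opposite strand. That motif is common, being in 34.3% of all windows. Otos also had a TATAAA starting at position -34, a motif found in 14.3% of windows, and Grp had 2 overlapping copies. The octamer was in the Upk3a window, starting at position -129, and in 1.64% of all windows. The Wfdc3 window held no match to the 4 motifs. A match is a run of letters and not a shown binding site, and its absence says only that these letters are not in this window.

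Among all 16779 genes ordered by standard deviation over the 10 tumours, the 7 genes held places 3 (Pou3f3), 9 (Csap1), 14 (Wfdc3), 16 (Grp), 17 (Upk3a), 20 (Otos) and 21 (Agt). Among the genes with a symbol they were 7 of the first 13. The others in those 13 places were the milk genes Lalba, Csn1s1, Glycam1 and Csn3, the chemokine Ccl3 and the imprinted RNA H19. Agt was the last of the 7 at a standard deviation of 2.11, and the next genes with a symbol were Abcc8, Duox2 and Wfdc18, at 2.09 each.

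**Figure D1:**
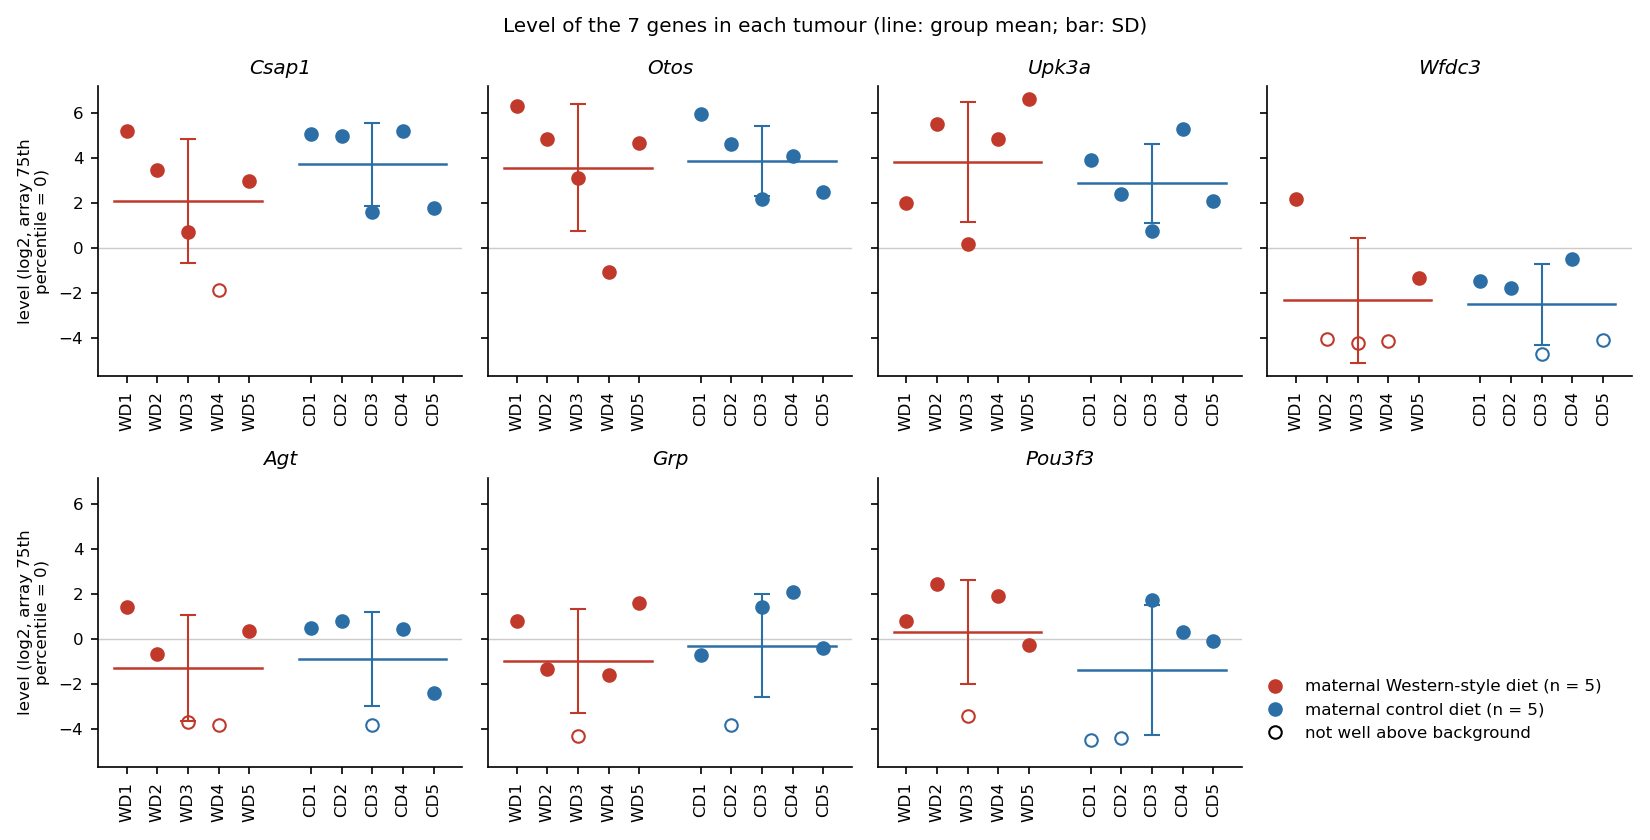
Level of each of the 7 genes in each tumour, on the log2 scale with the array's 75th percentile at 0, for 5 WD tumours (left, red) and 5 CD tumours (right, blue). Lines are group means, bars are standard deviations, and open points were not well above background; in all 7 panels the groups overlap.

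Otos was the most evenly detected of the secreted proteins, well above background on all 10 arrays. Its level was 6.28, 4.85, 3.11, -1.08 and 4.68 in WD tumours 1 to 5, against 5.94, 4.61, 2.18, 4.08 and 2.47 in CD tumours 1 to 5. A single tumour, WD4, lay far below the others, and WD1 and CD1 were the highest. The range was 7.37, or 165-fold, and fell to 4.11 when WD4 was left out. The mean was 3.57 ± 2.83 in WD tumours and 3.85 ± 1.56 in CD tumours (SD, n = 5 each), so Otos did not differ between maternal diets beyond the spread (WD minus CD -0.29, 95% interval -2.97 to 2.39, limma adjusted p = 0.931). Within the 3 slides, which held 2, 2 and 1 WD tumours beside 1, 2 and 2 CD tumours, the difference was 0.96, -1.31 and -0.33.

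Csap1 had levels of 5.22, 3.47, 0.72, -1.89 and 2.96 in WD tumours 1 to 5, against 5.04, 4.98, 1.59, 5.18 and 1.76 in CD tumours 1 to 5. WD4 was again the lowest and was not well above background there. With WD4 at its array's detection limit, the range was 7.10, or 137-fold. Without WD4 the range was 4.50. The highest tumours of both groups were nearly level, WD1 at 5.22 and CD4 at 5.18. Csap1 averaged 2.10 ± 2.75 in WD tumours and 3.71 ± 1.86 in CD tumours (SD, n = 5 each). That is 3.06-fold lower in WD tumours (difference -1.61, 95% interval -4.36 to 1.13), which did not pass the test (limma adjusted p = 0.551). The direction was the same within each of the 3 slides, at -0.63, -2.26 and -2.15, and with slide as a block the difference was -1.76 (limma adjusted p = 0.182).

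Agt was printed as 10 spots of 1 probe, so its error within an array can be seen. Its level was 1.42, -0.64, -3.68, -3.81 and 0.35 in WD tumours 1 to 5, against 0.51, 0.82, -3.79, 0.44 and -2.37 in CD tumours 1 to 5. WD3, WD4 and CD3 were not well above background. With them at their arrays' detection limit the range was 17.5-fold, or 4.13 on the log2 scale, against 2.22 after normexp background correction. The standard deviation between spots of an array was 0.07 to 0.14 in the 6 tumours with the highest Agt, 0.24 in CD5, and 0.29 to 0.79 in the 3 tumours not well above background. The gap between CD5 and those 6 tumours was many times the spot error. Agt averaged -1.27 ± 2.37 in WD tumours and -0.88 ± 2.08 in CD tumours (SD, n = 5 each), a difference of -0.39 that did not pass the test (95% interval -3.01 to 2.22, limma adjusted p = 0.899). Within slides it was -0.43, -0.67 and -0.12.

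**Figure D2:**
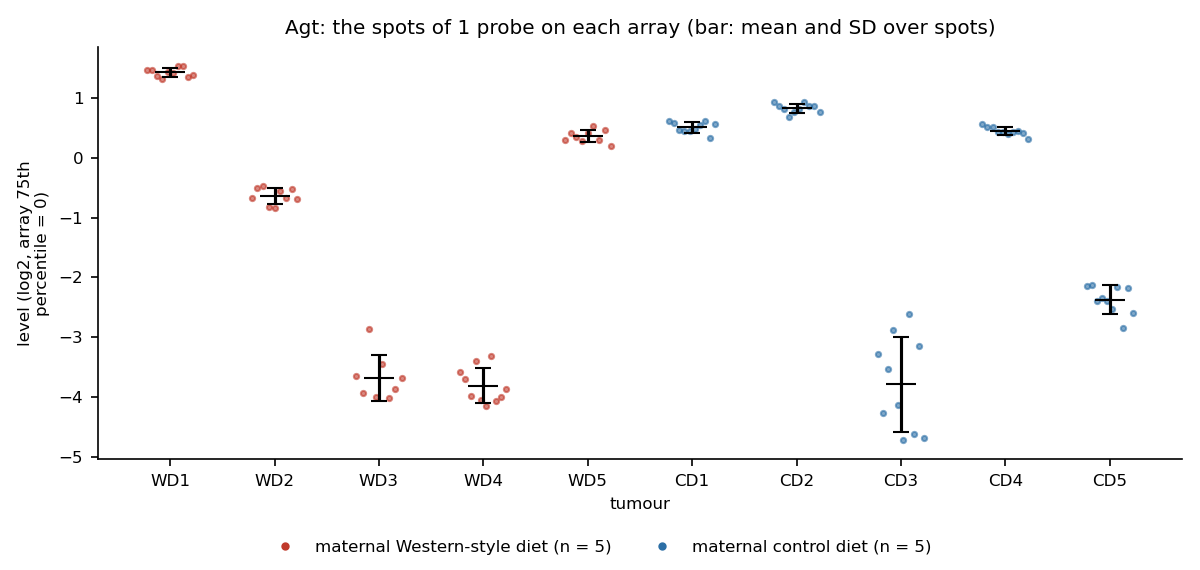
Level of angiotensinogen (Agt) at each of its 8 to 10 usable spots per array, on the log2 scale with the array's 75th percentile at 0, in 5 WD tumours (left, red) and 5 CD tumours (right, blue). Black bars are the mean and standard deviation over spots. The spots of WD3, WD4 and CD3 lie low and spread widely, while those of the tumours with the highest Agt lie close together.

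Wfdc3 was well above background in only 5 tumours, WD1 and WD5 in the WD group and CD1, CD2 and CD4 in the CD group. Its level was 2.15, -4.04, -4.23, -4.15 and -1.36 in WD tumours 1 to 5, against -1.47, -1.76, -4.72, -0.51 and -4.10 in CD tumours 1 to 5. WD1 stood above all the rest, and without it the range dropped to 4.20. With undetected tumours at their arrays' detection limit, the range was 37.1-fold. Wfdc3 averaged -2.33 ± 2.78 in WD tumours and -2.51 ± 1.80 in CD tumours (SD, n = 5 each), a difference of 0.19 (95% interval -2.56 to 2.93, limma adjusted p = 0.956). Within slides the values were 0.82, 0.22 and -0.37. The sign of the difference turned when WD1, WD5, CD3 or CD5 was left out, with values of -0.93, -0.05, -0.36 and -0.21.

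Upk3a was well above background in all 10 tumours. It measured 1.99, 5.52, 0.15, 4.82 and 6.61 in WD tumours 1 to 5, against 3.89, 2.40, 0.73, 5.27 and 2.07 in CD tumours 1 to 5. WD5 was the highest and WD3 the lowest, an 87.7-fold range, and WD4, the lowest tumour for Otos and Csap1, was among the high ones. The mean was 3.82 ± 2.67 in WD tumours and 2.87 ± 1.75 in CD tumours (SD, n = 5 each). The difference of 0.95 had the same sign within each slide (1.36, 1.09 and 2.03) but did not pass the test (95% interval -1.70 to 3.59, limma adjusted p = 0.730).

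Grp was well above background in 8 tumours, at 0.84, -1.31, -4.28, -1.59 and 1.61 in WD tumours 1 to 5, against -0.70, -3.78, 1.42, 2.09 and -0.38 in CD tumours 1 to 5. WD3 and CD2 were not well above background, and the highest tumours were CD4 and WD5, so high and low values stood in both groups. With WD3 and CD2 at their arrays' detection limit, the range was 35.0-fold. Grp averaged -0.95 ± 2.31 in WD tumours and -0.27 ± 2.29 in CD tumours (SD, n = 5 each), a difference of -0.68 (95% interval -3.38 to 2.02, limma adjusted p = 0.814). Within slides the difference was 3.55, -3.46 and 0.91, and it turned to 0.16 without WD3.

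Pou3f3 had the widest spread of the 7 by standard deviation (2.62). Its level was 0.81, 2.48, -3.38, 1.93 and -0.25 in WD tumours 1 to 5, against -4.49, -4.39, 1.74, 0.35 and -0.05 in CD tumours 1 to 5. It was not well above background in WD3, CD1 and CD2, and between 7 detected tumours it spanned -0.25 to 2.48. The range over all 10 was 45.9-fold with the undetected tumours at their arrays' detection limit. Pou3f3 averaged 0.32 ± 2.32 in WD tumours and -1.37 ± 2.88 in CD tumours (SD, n = 5 each). The difference of 1.69 (95% interval -1.38 to 4.75) did not pass the test (limma adjusted p = 0.579). The size moved with the treatment of dim spots. It was 1.30 with their levels at the array's limit, 0.89 after normexp and 0.71 in the series matrix values. Within slides the difference was 6.04, -1.57 and 1.82.

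For maternal diet, 0 of the 7 genes passed the threshold of limma's adjusted p under 0.05, beside 0 of all 16779 genes (0%). With no adjustment, 2603 genes (15.5%) were under 0.05, and again 0 of the 7. With slide as a block, 2914 genes and 1 of the 7 (Csap1, unadjusted p = 0.0101 in limma) were under 0.05 with no adjustment. The WD and CD values did not overlap for 610 genes (3.64%), and they overlapped for all 7. The exact two-sided permutation test over the 252 ways of dividing the tumours gave p-values of 0.286 (Pou3f3) to 0.865 (Otos), where the smallest it can give is 0.0079. The intervals span several log2 units for each gene, so differences of the size of those seen for Csap1 and Pou3f3 could not be told from none with 5 tumours a group. In these bulk samples, fewer cells of a type and less RNA per cell cannot be told apart.

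The casein level of a tumour was taken as the mean of Csn1s1, Csn2 and Csn3, the 3 casein genes kept. It was 3.72, 3.42, -0.47, -1.34 and 3.10 in WD tumours 1 to 5, against 3.25, 2.95, 0.33, 2.50 and 1.16 in CD tumours 1 to 5. Csn2 was dim, well above background in 7 tumours, so the casein level mostly follows Csn1s1 and Csn3. Csn1s2a and Csn1s2b were well above background in 0 tumours. Both groups held 3 tumours at 2.50 or above and 2 at 1.16 or below, and the 2 lowest tumours were WD4 and WD3.

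Over the 10 tumours, the level of 4 genes ran with the casein level, as a description. Pearson's r was 0.94 for Agt (Spearman 0.81), 0.91 for Csap1 (Spearman 0.82), 0.91 for Otos (Spearman 0.95) and 0.69 for Wfdc3 (Spearman 0.75). For the other 3, r was 0.38 for Upk3a, 0.31 for Grp and -0.16 for Pou3f3. WD4 alone set much of the value for Upk3a: without it r was 0.69 for Upk3a and 0.70 for Wfdc3. After normexp background correction r was 0.46 for Upk3a and 0.43 for Wfdc3, so the order of Upk3a and Wfdc3 turned with the background correction. Without WD3 and WD4, the tumours farthest from the median casein level, r was 0.92 for Agt, 0.77 for Csap1, 0.95 for Otos and 0.67 for Wfdc3, against 0.55 for Upk3a, -0.25 for Grp and -0.26 for Pou3f3. The points share tumours, arrays and scaling, and the brightness of an array differs between them.

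The casein level had its widest gap, 1.34, between CD5 at 1.16 and CD4 at 2.50, with 6 tumours above and 4 below. For Csap1, Otos and Agt all 6 tumours above that gap were higher than all 4 below it. Csap1 was 2.96 to 5.22 in those 6 and -1.89 to 1.76 in the other 4, Otos was 4.08 to 6.28 and -1.08 to 3.11, and Agt was -0.64 to 1.42 and -3.81 to -2.37. Within the 6, Otos still ran with casein (r = 0.83, Spearman 0.94), while r was -0.13 for Csap1, 0.14 for Agt and 0.19 for Wfdc3. The casein level of those 6 ran only from 2.50 to 3.72, so a small r there cannot show what the relation rests on. Below the gap Csap1 rose with casein, from -1.89 in WD4 through 0.72 in WD3 and 1.59 in CD3 to 1.76 in CD5. Wfdc3 was not well above background in any of those 4, nor Agt in WD3, WD4 and CD3. Wfdc3 broke the split between high-casein and low-casein tumours in WD2. In that tumour the casein level was 3.42 and Wfdc3 was not well above background.

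**Figure D3:**
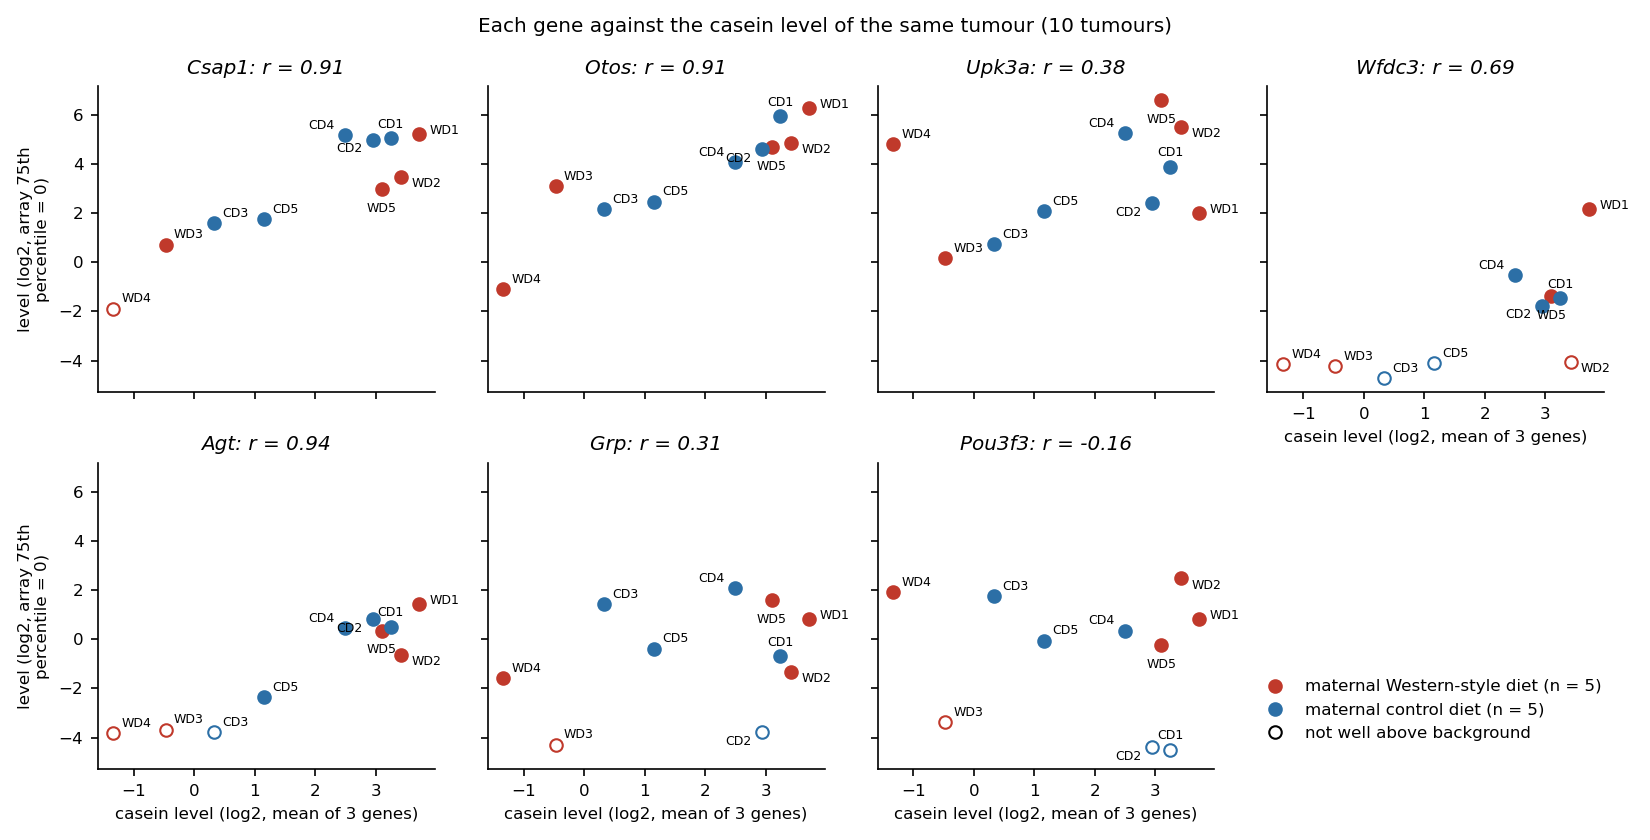
Level of each of the 7 genes (log2, array's 75th percentile at 0) against the casein level of the same tumour (log2, mean of Csn1s1, Csn2 and Csn3), for 5 WD tumours (red) and 5 CD tumours (blue), with Pearson's r over 10 tumours. Open points were not well above background. Csap1, Otos and Agt climb from WD4 and WD3 to WD1, while Grp and Pou3f3 show low tumours at both low and high casein.

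The single milk genes differed in how closely they ran with the 4 genes. Otos and Csn3 had r = 0.98, the highest of all 8252 genes with a symbol for Otos, and Otos and Lalba, alpha-lactalbumin of the lactose synthase complex, had r = 0.92. Csap1 and Csn3 had r = 0.90 and Agt and Csn1s1 0.89. With Csn2, no gene of the 7 went beyond 0.39, and with Glycam1 none went beyond 0.47. Among themselves Csap1, Otos, Agt and Wfdc3 had r of 0.68 to 0.91 in their 6 pairs, the lowest for Otos with Wfdc3. Upk3a had r of 0.09 to 0.41 with those 4, Grp 0.15 to 0.37 and Pou3f3 -0.37 to -0.16. The r of 0.54 between Grp and Pou3f3 rested on CD2 and WD3, where both were undetected, and was -0.01 without them. With Csn1s1, Upk3a had r = 0.57, beside 0.66 for Wfdc3. Csap1, Otos and Agt had r of 0.85 to 0.98 with the casein level in the settings run, Upk3a had 0.19 to 0.69 and Wfdc3 0.43 to 0.84. Grp had 0.05 to 0.49 and Pou3f3 -0.40 to 0.07.

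**Figure D4:**
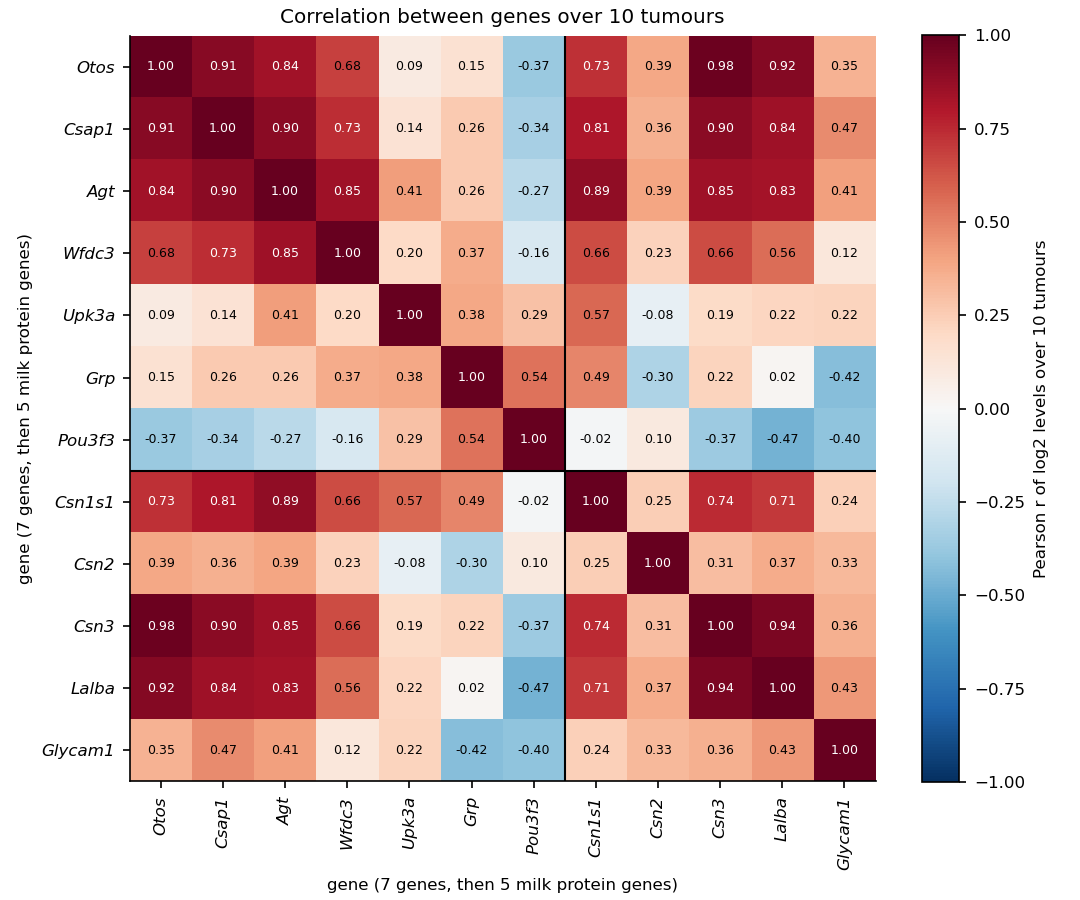
Pearson's r of log2 levels over 10 tumours between the 7 genes and 5 milk protein genes (rows and columns), with red for positive and blue for negative values. Otos, Csap1, Agt and Wfdc3 form a positive block with Csn1s1, Csn3 and Lalba, whereas Grp, Pou3f3, Csn2 and Glycam1 lie outside it and Upk3a has its highest r with Csn1s1 (0.57).

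By the highest r over the 10 tumours, the genes outside the 7 most like each were as follows, again as a description. For Csap1 they were Mfge8, a milk fat globule protein (r = 0.93), Flad1 and Rtn1 (0.92 each). For Otos they were Csn3, the potassium channel Kcnk5 (0.96) and Elf5, the ETS factor of alveolar cells (0.94, Spearman 0.99). For Agt they were Ngef (0.99), Rasgef1c (0.98) and the growth factor Tgfb3 (0.96), and for Wfdc3 the glycoprotein Chi3l1, Blnk and the homeobox factor Dlx5 (0.94 each). Agt had 26 genes at r of 0.9 or more, Wfdc3 10, Otos 9 and Csap1 6, against 1 for Upk3a, 1 for Grp and 3 for Pou3f3. For Upk3a the first was Agps (0.93), for Grp Sel1l (0.92) and for Pou3f3 Ank3 (0.93).

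Elf5, which drives alveolar differentiation downstream of the prolactin receptor, was well above background in 6 tumours. Its level was -0.30, -1.02, -2.91, -4.09 and -1.47 in WD tumours 1 to 5, against -0.59, -1.89, -3.53, -1.78 and -3.09 in CD tumours 1 to 5, and it was below the detection limit of the array in WD3, WD4, CD3 and CD5, the 4 tumours with the lowest casein levels. Its rank correlation with Otos therefore includes 4 values without a firm order. The prolactin receptor Prlr had r = -0.48 with the casein level, and the STAT5 genes differed, with r of 0.14 for Stat5a and 0.75 for Stat5b. All 3 were well above background in all 10 tumours. Of 18 measured genes of the prolactin and STAT5 list, 0 passed the diet test in either direction, 5 were higher and 13 lower, and the median difference was -0.22, beside 0.01 over all genes. An unadjusted limma p under 0.05 was found for 7 of those 18, beside 15.5% of all genes. Prlr averaged 2.04 ± 0.82 in WD tumours and 2.78 ± 0.20 in CD tumours, and the progesterone receptor Pgr 0.26 ± 0.56 in WD tumours and 1.26 ± 0.29 in CD tumours (SD, n = 5 each, limma adjusted p = 0.320 and 0.181).

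Of 10 measured milk protein and milk fat globule genes, 0 passed the diet test, 3 were higher and 7 lower (median difference -0.31). The machinery that carries proteins into and through the endoplasmic reticulum was even across tumours in its mean level. Single genes could move more, Atf6 over a range of 1.82 and Creb3l1 of 1.73, beside a median of 1.15 over all genes. The median standard deviation of its genes was 0.30, beside 0.37 over all genes. An unadjusted limma p under 0.05 for diet was found for 9 of its 37 measured genes, beside 15.5% of all genes. The mean of its 37 measured genes was 2.05 to 2.27 in WD tumours and 2.08 to 2.28 in CD tumours, with 0 passing, 16 higher and 21 lower. No correlation of the 7 genes with it passed the test: r lay between -0.15 for Otos and 0.47 for Grp, and the lowest adjusted permutation p was 0.905 over 70 tests, which also covered the luminal, fibroblast, leukocyte and cell cycle lists. Csap1 had r of -0.63 (Spearman -0.44) with the leukocyte list, the largest r of these 35 pairs in size, without passing the test. That r rested on WD3 and WD4, the tumours farthest from the median of that list, and was -0.02 without them.

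For Wfdc3, the family was measured in part. Of 25 WAP-domain family genes listed, 10 were named on the array and 6 measured, with 5 higher, 1 lower and 0 passing (median difference 0.66). The unadjusted limma p was under 0.05 for 3 of those 6, beside 15.5% of all genes. Wap, whey acidic protein itself, was well above background in 4 tumours and was not tested. Wfdc18, another secreted WAP-domain protein of the mammary gland, measured 2.22, 0.24, 3.09, 5.03 and 2.65 in WD tumours 1 to 5, against -0.48, -1.56, 2.42, 0.29 and -0.86 in CD tumours 1 to 5. It was highest in WD4, where Wfdc3 was undetected, and its r with the casein level was -0.61. Its difference of 2.69 did not pass the test (limma adjusted p = 0.207). The secretory leukocyte protease inhibitor Slpi averaged 4.23 ± 0.87 in WD tumours and 3.19 ± 0.55 in CD tumours, and Wfdc2 6.53 ± 0.46 in WD tumours and 6.95 ± 0.38 in CD tumours (SD, n = 5 each), also without passing.

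For angiotensinogen, later steps of the pathway were detected unevenly. The converting enzyme Ace was well above background in all 10 tumours. The receptor Agtr1a was also well above background in all 10, at 0.00, 3.24, 4.10, 1.65 and 1.08 in WD tumours 1 to 5, against 3.92, 2.43, 3.47, 3.56 and 3.29 in CD tumours 1 to 5. It was highest in WD3, where Agt was undetected, and lowest in WD1, where Agt was highest. Not all tumours followed that order: CD1 and CD4 were high in both genes, and in WD4 Agt was undetected with Agtr1a at 1.65. The relation between Agtr1a and Agt was not tested. Agtr1b, Agtr2 and Mas1 were well above background in 0 tumours. Of 10 measured genes of the pathway, 0 passed the diet test, 4 were higher and 6 lower (median difference -0.22).

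For gastrin-releasing peptide, the receptors Grpr, Nmbr and Brs3 were well above background in 0 of the 10 tumours. Of 5 measured peptide-processing genes, 0 passed the diet test, 3 were higher and 2 lower (median difference 0.05). The amidating enzyme Pam and carboxypeptidase Cpe were well above background in all 10 tumours, and the prohormone convertases Pcsk1 and Pcsk2 in 0. Of 11 neuroendocrine and neuronal markers on the array, 1 was kept (Uchl1, -2.56 to -1.29 in WD tumours and -1.92 to -0.61 in CD tumours). Chga, Chgb, Scg2, Snap25, Ncam1, Stmn2 and Sox2 were well above background in 0 tumours.

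Of the other uroplakins, Upk1b, a tetraspanin, was well above background in all 10 tumours, at 3.48 to 4.76 in WD tumours and 3.97 to 4.59 in CD tumours. Its standard deviation over the 10 tumours was 0.36, where that of Upk3a was 2.18. The other one measured, Upk3bl1, was also well above background in all 10, at -0.08 to 3.15 in WD tumours and -0.99 to 1.80 in CD tumours, a range of 4.13 where that of Upk3a was 6.45. Krt20, a terminal marker of urothelium, and Psca were well above background in 0 tumours. Of the 3 measured genes of the uroplakin list, 2 were higher, 1 was lower and 0 passed. Of the class of Pou3f3, Pou3f1, Pou3f2 and Pou3f4 were well above background in 0 tumours, while the POU factors Pou2f1 and Pou6f1 were present in all 10 with standard deviations of 0.25 and 0.32. Of 4 measured genes of the POU list, 3 were higher, 1 was lower and 0 passed (median difference 0.19). That list includes Pou2af1, a partner of POU factors and not a POU factor itself.

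Markers of glands and tissues in which these genes are best known were set beside them. Of 8 salivary gland markers named on the array, 3 were kept (Aqp5, Prb3 and Egf), and Bpifa2, Smr3a, Smr3b and Klk1 were well above background in 0 tumours, including those with high Csap1. The kept markers averaged -1.55 to 0.19 in WD tumours and -1.63 to 0.73 in CD tumours. Among them Aqp5 was well above background in all 10 tumours, with a mean level of 3.27 and a standard deviation of 1.80. Of 8 hepatocyte markers, 1 was kept (Serpina1, -1.37 to 0.15 in WD tumours and -0.65 to 1.33 in CD tumours), while Alb, Apoa1, Ttr, Fga, Fgb, Ahsg and Apoh were well above background in 0 tumours. Adipocytes, a source of angiotensinogen, gave 3 kept markers of 8, averaging -0.30 to 2.06 in WD tumours and -0.68 to 2.26 in CD tumours. Lep and Cidec were well above background in 0 tumours and Adipoq in 4. The part of adipocytes in the level of Agt was not tested.

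Array brightness, the 75th percentile of an array, was set against each gene. Over 14 correlations, the lowest adjusted permutation p was 0.449, and the largest r was 0.55 for Agt. With brightness as a covariate in limma, the diet difference of Agt was 1.55 and that of Otos 0.67, opposite in sign to those without it, at adjusted p of 0.882 and 0.950. It was -0.43 for Csap1, 2.69 for Upk3a, 1.90 for Wfdc3, -0.16 for Grp and 0.71 for Pou3f3, against -1.61, 0.95, 0.19, -0.68 and 1.69 without the covariate. The lowest of these p-values was that of Upk3a (adjusted p = 0.856, unadjusted 0.0719), so 0 of the 7 passed. The part of brightness in these levels was not otherwise tested.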

How the data were processed

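One array per tumour was hybridised with 200 ng of Cy3-labelled total RNA. Scans were read by the authors with Agilent Feature Extraction, version 11.5.1.1 per the file headers and 15.5 per the submitters' processing notes. The deposited files give intensity as processed signals, background-subtracted per the file headers and not scaled between arrays, together with median spot and background intensities and flags of 0 or 1. The deposited series matrix holds log2 values that rank as the median signals of the same array (Spearman 1 for all 10), and no source used here says how it was scaled.

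Each array had 45018 spots, of which 1639 were controls, and 41012 probes. The processed signal was taken to log2, the array's 75th percentile was subtracted, outlier spots were left out and spots of a probe were averaged. Probes were kept when well above background, on at least 50% of their spots, on 5 or more of 10 arrays (19745 probes). A gene was represented by its kept probe of highest mean level (16779 genes, 8270 with a symbol). Symbols came from transcript identifiers through RefSeq on GRCr8, which named 17502 probes; the file headers name rn4 as the build of the array annotation, and no positions on it are given. Slides were taken from the array numbers.

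The diet comparison used limma 3.58.1, with Benjamini-Hochberg adjustment over all tested genes, and exact permutation, both in R 4.3.3. Correlations with array brightness and with 5 gene lists were computed with scipy 1.17.1 and used 100000 permutations. The fit was also tested on simulated data. The members and the gene lists were chosen with earlier results of these data known. Genes named are the 7 members, the milk genes, the 3 genes most like each member, each list's genes of smallest p or widest spread, direct relatives of a member, and the 10 most variable genes with a symbol; other marker genes are named to say which were absent. Same-numbered tumours of the groups did not deviate together (correlations -0.02, 0.07, 0.16, 0.02 and 0.06), so the main comparison is unpaired. The alternatives tried were other background correction, normalisation, filters, probe choice, blocks and covariates, and leaving out each tumour. Normexp used median spot signals. Some genes of the lists are not reported here.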

Additional observations from a re-analysis of the deposited data

How the results depend on the processing

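The count of called genes and the count of called members were 0 under all 11 alternative settings and with each tumour left out in turn. At an unadjusted p under 0.05 the gene count was 2603 by limma, 499 after normexp, 2914 with slide as a block, 963 with array brightness as a covariate, 7055 of 36061 genes with no filter on dim probes, 2030 of 12511 with a filter on all 10 arrays, and 1853 to 3283 with a tumour left out. With the replicate number as a block, 0 genes passed and the lowest adjusted p for a member was 0.485 (Csap1), so the block changed no call.

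Differences that turned sign were those of Wfdc3 under quantile normalisation (-0.27), of Otos (0.67) and Agt (1.55) with array brightness as a covariate, and of Agt (0.11) with undetected levels raised to the array's detection limit, an alternative chosen after seeing the data, under which the difference was 0.92 for Wfdc3 and -0.37 for Grp. The cause was not tested. With a tumour left out, the difference ranged from -0.93 to 0.69 for Wfdc3, -1.12 to 0.24 for Agt, -1.56 to 0.16 for Grp and -0.96 to 0.88 for Otos. It stayed between -2.39 and -0.62 for Csap1, 0.25 and 1.86 for Upk3a and 0.91 and 2.61 for Pou3f3.

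Signal near background limits the ranges of the dim genes. Under normexp and in the series matrix values the range was 3.08 and 3.20 for Wfdc3, 2.22 and 2.25 for Agt, 3.41 and 2.97 for Grp, and 3.29 and 3.05 for Pou3f3. With undetected levels at the array's detection limit it was wider, at 5.21 for Wfdc3, 4.13 for Agt, 5.13 for Grp and 5.52 for Pou3f3. Of the 7 genes, Otos and Upk3a alone passed a filter on all 10 arrays. The correlation with the casein level was 0.85 to 0.98 over Csap1, Otos and Agt in the settings run, 0.43 to 0.84 for Wfdc3 and 0.19 to 0.69 for Upk3a. The casein genes in that level changed with the filter, down to Csn3 alone with the filter on all 10 arrays.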
